A study of Mus musculus with 18 samples.

Results

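The genes described here are 9 subunits of voltage-gated calcium channels: the L-type pores Cacna1c and Cacna1d, the T-type pores Cacna1g and Cacna1h, the β subunits Cacnb1, Cacnb2 and Cacnb3, and the α2δ subunits Cacna2d1 and Cacna2d2. They were picked by name and not by a cut-off on measured values, but with earlier results of these data known. They are 9 of 49315 genes in the count tables. All 9 passed the filter on low counts, which kept 18885 genes. The material was whole hearts of wild-type C57BL/6 mice, an inbred strain, taken before birth and given no treatment or added allele. There were 3 libraries from E9.5 (embryonic age in days), 4 from E10.5, 4 from E12.5, 3 from E14.5 and 4 from E16.5. Each of the 18 libraries is labelled as a pool of both sexes. No label ties libraries of one stage to different litters, and p-values therefore reflect the spread among these libraries, which may be technical.

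Voltage-gated calcium channels open when the cell membrane is depolarised and let calcium into the cell. In heart muscle, L-type channels carry the long-lasting current that triggers release of stored calcium and contraction, and T-type channels open at more negative voltages, with a brief current that is prominent in embryonic heart muscle and in pacemaker cells. An L-type channel is built from a pore-forming α1 subunit, a β subunit on the inner face that helps to bring the pore to the membrane and tunes its opening, and an α2δ subunit on the outer face. T-type pores can work without these partners.

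Library totals ran from 30744015 to 45646538 counts, so that 3 counts, the limit set by a count of 0, stand for 0.0657 to 0.0976 CPM (counts scaled to library size). All 12 cardiomyocyte markers on the list used here were detected, with a summed level of 27510 to 48380 CPM over the libraries. The libraries of the early stages fall into 2 sets that the labels do not name. In 5 libraries (E9.5 replicates 2 and 3, E10.5 replicates 1 and 2, and E12.5 replicate 4) 8 transcripts, most of them known from macrophages (Atp6v0d2, Gpnmb, Chil3, Cd74, Itgax, H2-Aa, Mmp13 and Mmp12), summed to 0.582 to 2.75 CPM, and in the other 13 to 341 to 689 CPM. E9.5 therefore has only replicate 1 in the set of 13 high libraries. Several channel genes differed at E9.5 in the same way as these sets, and their values are given with all libraries and within the sets.

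The binding site for β subunits marks the split between the pore families in sequence, and is shown because the β genes are described beside the pores. It lies in the loop after the first repeat of L-type pores and is called the alpha interaction domain. GENCODE M21 coding transcripts were translated and searched for its published amino acid consensus. The domain was matched in 22 of 22 transcripts of Cacna1c, in 5 of 5 of Cacna1d, in 0 of 11 of Cacna1g and in 0 of 5 of Cacna1h. In the GRCm38 build it is in exon 9 of both L-type genes, at chr6:118734906-118734959 on the minus strand for Cacna1c and at chr14:30142600-30142653 on the minus strand for Cacna1d. Both are coding sequence, given here 5′ to 3′ with capitals at the bases that differ between the genes.
Cacna1c: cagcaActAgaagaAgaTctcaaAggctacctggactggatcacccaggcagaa
Cacna1d: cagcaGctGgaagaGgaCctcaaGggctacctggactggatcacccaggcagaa
Over these 54 bases, 5 differ, all 5 at the third position of a codon, and 0 of the 18 encoded amino acids differ. Both L-type pores thus encode the same residues over this stretch.

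Among the pores, Cacna1c had its highest mean at E16.5, Cacna1d and Cacna1h had theirs at E9.5, and Cacna1g was 18.4-fold higher at E16.5 than at E9.5. Among the partners, Cacnb1 and Cacna2d1 rose over development, Cacna2d2 fell, and Cacnb2 and Cacnb3 moved little. All 9 genes were called for a difference among the 5 stages (edgeR's quasi-likelihood test, Benjamini-Hochberg adjusted p from 1.61e-12 for Cacna1g to 0.00277 for Cacna1c), where 71.7% of all genes tested were called. For E16.5 with E9.5, 5 rose and 4 fell. Of all genes tested 64.9% were called, 32.1% higher and 32.8% lower at E16.5, so a call alone says little here and the sizes carry the description. The median log2 fold change of the 9 was 0.37, beside -0.01 over all genes tested. Because hearts were sequenced whole, fewer cells of a type and less RNA per cell cannot be told apart.

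**Figure D1:**
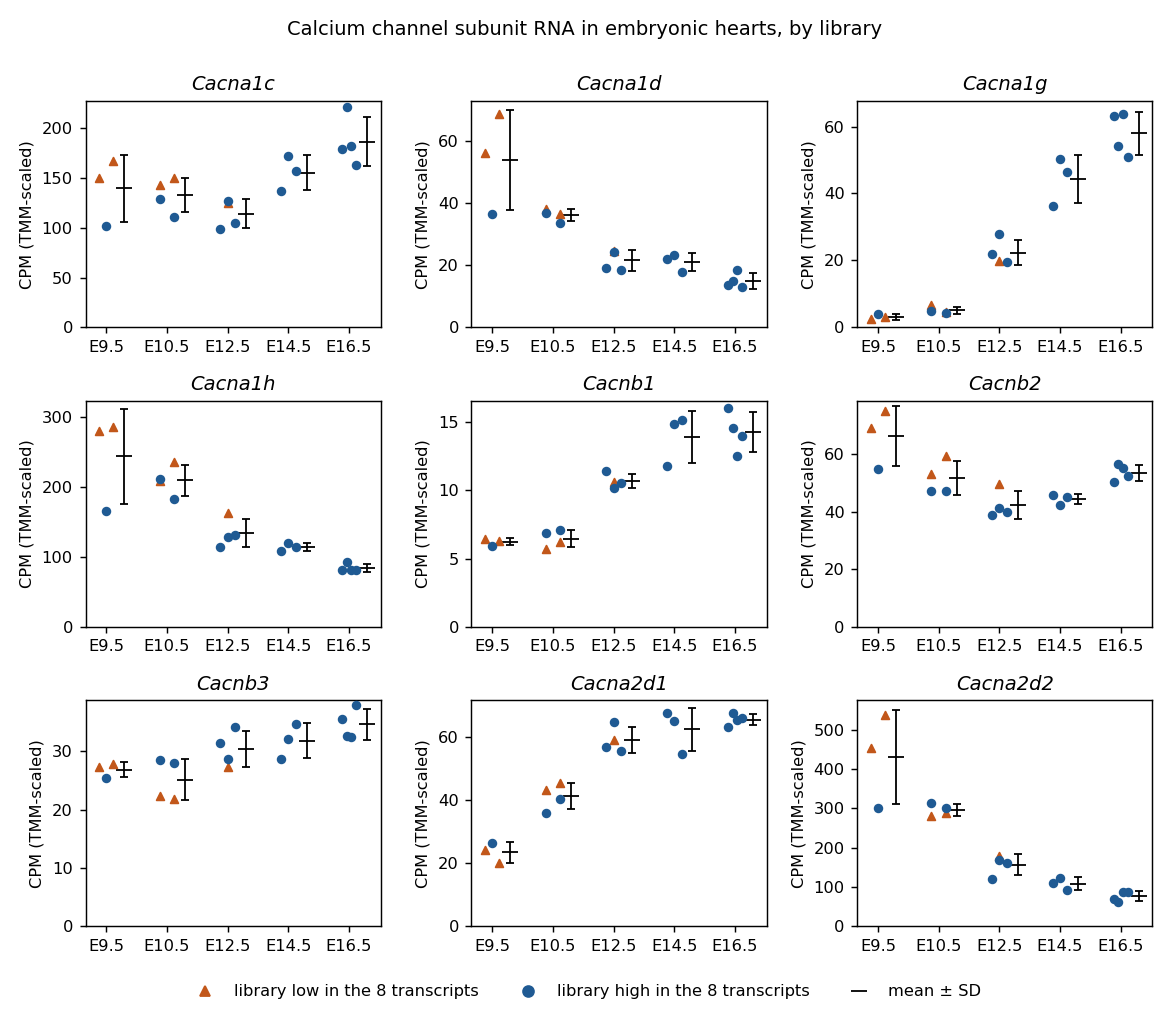
Level of each of the 9 genes by stage, in CPM of the TMM-scaled library size, from a zero baseline. Each point is a library, triangles are the 5 libraries low in the 8 transcripts and circles the 13 high ones, and bars are the mean ± SD; Cacna1g ran from 50.8 to 63.7 CPM at E16.5 and from 2.40 to 4.08 CPM at E9.5.

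Cacna1c encodes the main L-type pore of working heart muscle, the one on which contraction of the ventricle depends. In GRCm38 it lies at chr6:118587240-119196418 on the minus strand. It had 102, 149.9 and 167 CPM at E9.5, 143, 150.3, 129.5 and 111 CPM at E10.5, and 98.4, 127, 105 and 125 CPM at E12.5. At E14.5 it had 137, 172 and 157 CPM, and at E16.5 it had 179, 221, 182 and 163.5 CPM. The low stage was E12.5, whose libraries all lie below those of E14.5, while the ranges of E16.5 and E9.5 overlap. Cacna1c rose at E16.5 relative to E9.5 by a log2 fold change of 0.42 ± 0.15 (SE; adjusted p = 0.0236), a call that was lost without E9.5 replicate 1 (0.24, adjusted p = 0.134), without E16.5 replicate 2 (0.33, adjusted p = 0.0769) and in a fit to those 2 stages alone (0.42, adjusted p = 0.0532). Within the 13 high libraries it was 0.88 ± 0.18 (adjusted p = 0.000593). The step with no overlap, E14.5 with E12.5, was 0.45 ± 0.15 and just missed the threshold (adjusted p = 0.0544), and with the library set as a term in the model it was 0.54 ± 0.12 (adjusted p = 0.00276).

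Cacna1d encodes the L-type pore that opens at less depolarised voltages and is known for its role in the sinoatrial pacemaker and in the atria. The gene lies at chr14:30039939-30491455 on the minus strand. It had 36.5, 56.15 and 68.4 CPM at E9.5, 38.0, 36.3, 36.8 and 33.55 CPM at E10.5, and 19.0, 24.25, 18.3 and 24.5 CPM at E12.5. At E14.5 it had 22.1, 23.2 and 17.9 CPM, and at E16.5 it had 13.6, 14.85, 18.5 and 12.9 CPM. Every E16.5 library was below every E9.5 library. Cacna1d fell 3.59-fold at E16.5 relative to E9.5 (log2 fold change -1.84 ± 0.17, adjusted p = 4.33e-08). It fell at E12.5 relative to E10.5 as well, by 0.75 on the log2 scale (SE 0.16, adjusted p = 0.00132), with no overlap between the stages. The E10.5 value relative to E9.5 was -0.57 ± 0.17 (adjusted p = 0.0259), but E9.5 replicate 1, at 36.5 CPM, sits among the E10.5 libraries.

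Cacna1g encodes a T-type pore that persists in the adult sinoatrial and atrioventricular nodes. The gene lies at chr11:94408391-94474198 on the minus strand. It had 4.08, 2.40 and 2.96 CPM at E9.5, from 135, 74 and 89 counts, and 6.56, 4.50, 5.01 and 4.41 CPM at E10.5. At E12.5 it had 22.05, 27.8, 19.6 and 19.7 CPM, at E14.5 36.3, 50.2 and 46.4 CPM, and at E16.5 63.2, 54.2, 63.7 and 50.8 CPM. The ranges of neighbouring stages do not overlap at any of the 4 steps. Cacna1g rose 18.4-fold at E16.5 relative to E9.5 (log2 fold change 4.20 ± 0.20, adjusted p = 4.79e-12). It rose 4.34-fold at E12.5 relative to E10.5 (2.12 ± 0.16, adjusted p = 2.32e-08) and 1.99-fold at E14.5 relative to E12.5 (0.99 ± 0.16, adjusted p = 0.000407). The last step was 0.39 ± 0.16 at E16.5 relative to E14.5 and did not pass (adjusted p = 0.11). A fit to the 13 high libraries alone gave 0.39 ± 0.13 (adjusted p = 0.0435). All E14.5 and E16.5 libraries are high ones, so that fit compares the same libraries with another estimate of the spread.

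Cacna1h encodes the other T-type pore of the heart, the one known as the more abundant in embryonic and fetal heart muscle. The gene lies at chr17:25374285-25433783 on the minus strand. It had 166, 280.4 and 286 CPM at E9.5, 208, 236, 212 and 183 CPM at E10.5, and 115, 128, 132 and 163 CPM at E12.5. At E14.5 it had 109, 120.3 and 115 CPM, and at E16.5 it had 81.7, 92.8, 81.5 and 81.45 CPM. The E16.5 libraries are the lowest and lie below all libraries of every earlier stage. Cacna1h fell 2.89-fold at E16.5 relative to E9.5 (log2 fold change -1.53 ± 0.15, adjusted p = 5.98e-08), and it fell at E12.5 relative to E10.5 by 0.64 on the log2 scale (SE 0.14, adjusted p = 0.0014). It also fell at E16.5 relative to E14.5, by 0.44 (SE 0.15, adjusted p = 0.0477), with no overlap. That last call was lost when any of E14.5 replicates 1, 2 and 3 or E16.5 replicates 1, 3 and 4 was left out, at log2 fold changes of -0.48 to -0.40.

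The mixture of T-type pore RNA shifted over the stages. Of the T-type pore reads per kilobase of exon, Cacna1g made up 1.37% ± 0.82 in E9.5 hearts (SD, n = 3), 2.31% ± 0.47 in E10.5 hearts (n = 4), 13.97% ± 3.1 in E12.5 hearts (n = 4), 27.0% ± 2.3 in E14.5 hearts (n = 3) and 39.8% ± 3.5 in E16.5 hearts (n = 4), with Cacna1h as the rest. Cacna1h stayed the more abundant of the T-type pores in all 18 libraries. The log2 ratio of Cacna1h to Cacna1g counts within a library fell by 2.78 at E12.5 relative to E10.5 (exact two-sided permutation test, p = 0.0286, the smallest that 4 against 4 libraries allow) and by 5.72 at E16.5 relative to E9.5 (exact p = 0.0571, the smallest that 4 against 3 allow). Within the high libraries the E16.5 value of this ratio relative to E9.5 was -4.80, from 4 libraries against 1. L-type RNA shifted towards Cacna1c. Cacna1d made up 39.0% ± 1.6 of L-type reads per kilobase in E9.5 hearts, 31.4% ± 2.0 in E10.5 hearts, 24.0% ± 0.92 in E12.5 hearts, 18.6% ± 2.6 in E14.5 hearts and 11.9% ± 1.9 in E16.5 hearts. The log2 ratio of Cacna1d to Cacna1c fell by 0.53 at E12.5 relative to E10.5 and by 1.24 at E16.5 relative to E12.5 (exact p = 0.0286 each). E9.5 replicate 1, which is low for Cacna1c, Cacna1d and Cacna1h alike, had a log2 ratio of Cacna1d to Cacna1c of -1.48, beside -1.42 and -1.29 in the other E9.5 libraries.

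**Figure D2:**
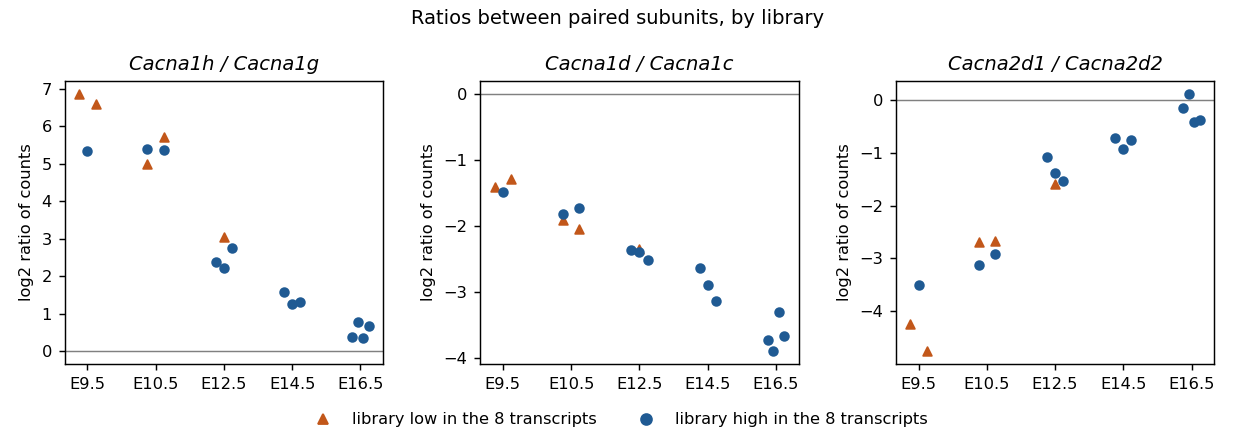
Log2 ratio of counts between paired subunits in each library, by stage, with triangles for the 5 libraries low in the 8 transcripts and circles for the 13 high ones; the line marks equal counts. The ratio of Cacna1h to Cacna1g averaged 0.55 at E16.5 and 6.27 at E9.5, and that of Cacna2d1 to Cacna2d2 -0.21 at E16.5 and -4.17 at E9.5.

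Summed T-type pore RNA was 25.3 ± 6.9 CPM per kilobase in E9.5 hearts, 22.0 ± 2.3 in E10.5 hearts, 15.96 ± 2.0 in E12.5 hearts, 16.1 ± 1.3 in E14.5 hearts and 14.4 ± 0.68 in E16.5 hearts. Summed L-type pore RNA was 10.8 ± 2.9, 9.16 ± 0.93, 7.09 ± 0.94, 9.01 ± 0.89 and 9.99 ± 1.2 CPM per kilobase over the stages in the same order. The log2 ratio of T-type to L-type RNA per kilobase of merged exon was 1.26 ± 0.06 in E10.5 hearts, 1.17 ± 0.12 in E12.5 hearts and 0.53 ± 0.12 in E16.5 hearts. At E12.5 relative to E10.5 the difference over all libraries was within the spread (-0.091, exact permutation p = 0.2). It was -0.14 with no overlap within the high libraries (3 against 2) and 0.005 within the low ones (1 against 2). The ratio fell by 0.64 at E16.5 relative to E12.5 (exact p = 0.0286). The level of this ratio depends on the length used. With the longest coding transcript as the length, the E16.5 libraries had log2 ratios of 0.20, -0.061, 0.13 and 0.20. Of all RNA for the 4 pores, Cacna1h held 35.5% ± 1.7 at E16.5 and 69.0% ± 1.7 at E9.5, and Cacna1c held 36.05% ± 2.3 at E16.5 and 18.3% ± 0.86 at E9.5. At E16.5 the ranges of both in CPM per kilobase of merged exon overlap, and with the longest coding transcript as the length, chosen after seeing the data, Cacna1c led with 42.75% ± 2.4 against 31.1% ± 1.5 for Cacna1h. Over the 15 ratio tests of this kind the lowest Benjamini-Hochberg adjusted p was 0.0536, so none passes the correction. In 13 of the 15 the stages do not overlap, which is the same event as reaching the smallest possible p and adds nothing to it. Within the 13 high libraries the E12.5 value relative to E10.5 (3 against 2 libraries) was -2.94 for Cacna1h over Cacna1g and -0.65 for Cacna1d over Cacna1c. In the low libraries (1 against 2) these were -2.31 and -0.38.

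**Figure D3:**
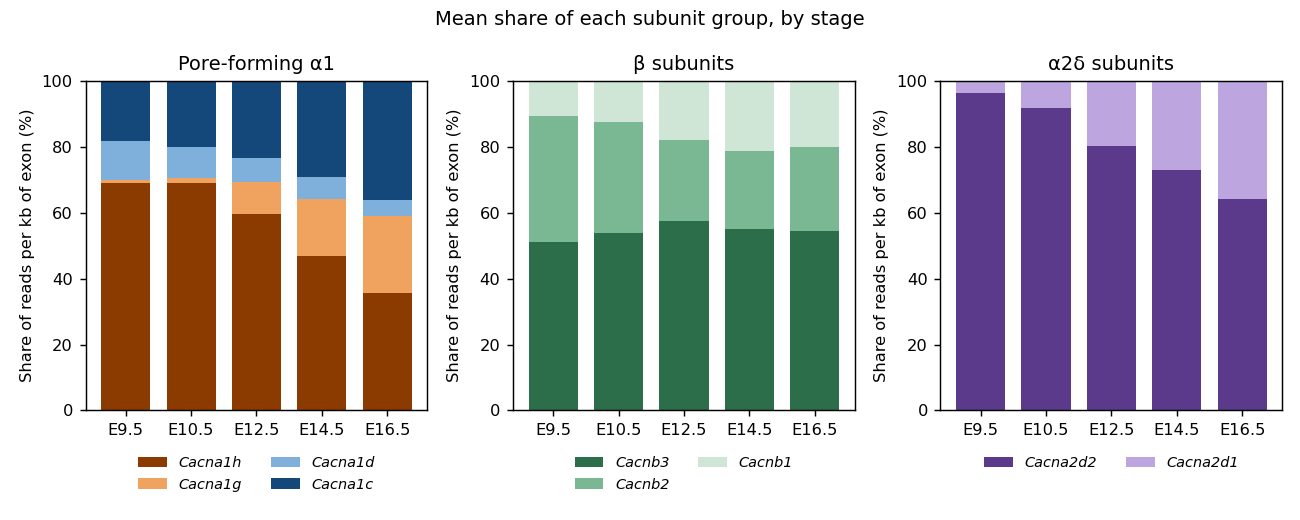
Mean share of reads per kilobase of merged exon within the pore, β and α2δ genes, in percent, by stage. Among the pores Cacna1h holds 35.5% at E16.5 and 69.0% at E9.5, and Cacna2d1 holds 35.7% of α2δ RNA at E16.5 and 3.64% at E9.5.

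Of the β subunits, Cacnb2 encodes the main partner of the L-type pore in heart muscle. The gene lies at chr2:14603088-14987908 on the plus strand. It had 54.9, 68.8 and 74.9 CPM at E9.5, 53.1, 59.2, 47.2 and 47.1 CPM at E10.5, and 38.8, 41.2, 39.7 and 49.6 CPM at E12.5. At E14.5 it had 45.6, 42.3 and 44.9 CPM, and at E16.5 50.3, 56.5, 55.1 and 52.2 CPM. The middle stages were low, and the E16.5 libraries all lie within or below the E9.5 range. Cacnb2 fell by 0.31 on the log2 scale at E16.5 relative to E9.5 (SE 0.10, adjusted p = 0.0154), but the value was -0.089 (adjusted p = 0.301) with the library set as a term in the model, and -0.031 (adjusted p = 0.812) within the 13 high libraries. Leaving out E9.5 replicate 2 (-0.28, adjusted p = 0.0568) or replicate 3 (-0.21, adjusted p = 0.122) also ended the call.

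Cacnb3 encodes a β subunit best known from neurons and smooth muscle, and Cacnb1 the one known from skeletal muscle, where it partners the pore encoded by Cacna1s. Cacnb3 lies at chr15:98630840-98644529 on the plus strand and Cacnb1 at chr11:98001508-98023034 on the minus strand. Cacnb3 had 25.3, 27.2 and 27.8 CPM at E9.5, 22.2, 21.9, 28.4 and 28.0 CPM at E10.5, and 31.4, 28.6, 34.0 and 27.3 CPM at E12.5. It had 28.7, 32.1 and 34.6 CPM at E14.5 and 35.5, 32.6, 32.4 and 37.9 CPM at E16.5. All E16.5 libraries exceeded all E9.5 libraries, by a log2 fold change of 0.37 ± 0.11 (adjusted p = 0.00489), which narrowed to 0.24 (adjusted p = 0.0537) with the library set as a term. Cacnb1 had 5.95, 6.46 and 6.31 CPM at E9.5, 5.68, 6.23, 6.89 and 7.08 CPM at E10.5, and 11.4, 10.2, 10.53 and 10.6 CPM at E12.5. It had 11.75, 14.9 and 15.2 CPM at E14.5 and 16.04, 14.55, 12.49 and 14 CPM at E16.5. The increase falls in the middle of the series, with no overlap between E12.5 and E10.5. Cacnb1 rose 2.29-fold at E16.5 relative to E9.5 (log2 fold change 1.19 ± 0.12, adjusted p = 2.27e-08) and by 0.73 ± 0.10 on the log2 scale at E12.5 relative to E10.5 (adjusted p = 1.86e-05).

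Within the β RNA, Cacnb2 lost ground to the other two. Their log2 ratio per kilobase, Cacnb2 over the sum of Cacnb1 and Cacnb3, was -0.70 ± 0.17 in E9.5 hearts, -0.98 ± 0.34 in E10.5 hearts, -1.64 ± 0.26 in E12.5 hearts, -1.71 ± 0.19 in E14.5 hearts and -1.54 ± 0.17 in E16.5 hearts. It fell by 0.66 at E12.5 relative to E10.5 (exact permutation p = 0.0286) and differed by 0.098 at E16.5 relative to E12.5 (exact p = 0.543). This ratio followed the library sets as well, at -0.76 and -0.61 in the low E10.5 libraries and -1.27 and -1.26 in the high ones, and the test over all libraries leaves the sets out of account. Within the high libraries the E12.5 value relative to E10.5 was -0.49 (3 against 2, exact p = 0.2, the smallest possible), and within the low libraries -0.60 (1 against 2, no test). Which β gene leads depends on the length used. With merged exons as the length Cacnb3 held 51.3% ± 2.1 of β RNA at E9.5 and Cacnb2 38.2% ± 2.7, and with the longest coding transcript Cacnb3 held 34.6% ± 2.3 and Cacnb2 58.9% ± 2.8, so their order depends on the length.

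Cacna2d2 encodes an α2δ subunit that binds gabapentin and that is known from the brain, and in these hearts it had the highest mean level per kilobase of merged exon of the 9 genes at every stage, with ranges that overlap those of the next gene from E12.5 on. With the longest coding transcript as the length it was highest up to E14.5 and not at E16.5. The gene lies at chr9:107399612-107529343 on the plus strand. It had 301, 453 and 537.5 CPM at E9.5, 280.1, 289, 315 and 302 CPM at E10.5, and 119.5, 168, 161 and 179 CPM at E12.5. At E14.5 it had 111, 123 and 92.1 CPM, and at E16.5 69.8, 62.3, 87.0 and 86.3 CPM. Each E16.5 library was below each library of all 4 earlier stages. Cacna2d2 fell 5.64-fold at E16.5 relative to E9.5 (log2 fold change -2.50 ± 0.18, adjusted p = 1.50e-09), and by 0.92 on the log2 scale at E12.5 relative to E10.5 (SE 0.16, adjusted p = 0.000279). It was -0.53 ± 0.18 at E14.5 relative to E12.5 (adjusted p = 0.0527) and -0.51 ± 0.17 at E16.5 relative to E14.5 (adjusted p = 0.0501), just outside the threshold in both. Its exons overlap 1.03% with those of Gm17141 on the opposite strand, and the exons of Cacna1d overlap 4.67% with those of Chdh. Also on opposite strands, the exons of Cacnb2 overlap 4.67% with Gm10849, 1.81% with Gm13269 and 0.839% with Gm10848. Those of Cacnb1 overlap 1.77% with Gm11629, and those of Cacna1h 1.62% with Tpsg1. Without the strand setting, reads there cannot be assigned.

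Cacna2d1 encodes the α2δ subunit known as the usual partner of the cardiac and skeletal muscle L-type channel. The gene lies at chr5:15934691-16374511 on the plus strand. It had 26.4, 24.0 and 19.9 CPM at E9.5, 43.3, 45.4, 35.9 and 40.2 CPM at E10.5, and 56.8, 64.7, 55.5 and 59.1 CPM at E12.5. It had 67.4, 64.8 and 54.7 CPM at E14.5 and 63.0, 67.4, 65.3 and 65.9 CPM at E16.5. The early stages hold the rise, and from E12.5 on the ranges overlap. Cacna2d1 rose 2.79-fold at E16.5 relative to E9.5 (log2 fold change 1.48 ± 0.10, adjusted p = 1.69e-10), 1.76-fold at E10.5 relative to E9.5 (0.81 ± 0.10, adjusted p = 1.1e-05) and 1.43-fold at E12.5 relative to E10.5 (0.52 ± 0.09, adjusted p = 0.000142). The log2 ratio of Cacna2d1 to Cacna2d2 rose by 1.45 at E12.5 relative to E10.5 (1.69 within the high and 1.08 within the low libraries) and by 3.96 at E16.5 relative to E9.5 (exact permutation p = 0.0286 and 0.0571, the smallest each design allows). Within the high libraries the E16.5 value of this ratio relative to E9.5 was 3.30, from 4 libraries against 1. Over the 5 stages in order Cacna2d1 made up 3.64% ± 1.5, 8.20% ± 1.1, 19.6% ± 2.6, 26.9% ± 1.5 and 35.7% ± 4.0 of the α2δ reads per kilobase.

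The start regions of the α2δ genes are printed because this pair moved in opposite directions. They are taken from RefSeq (GRCm38.p6), where 7 of the 9 genes matched with 13 windows, each reaching 250 bases before to 50 after a gene start, and are given 5′ to 3′ with CG dinucleotides in capitals.
Cacna2d1 (chr5:15934441-15934740, plus strand): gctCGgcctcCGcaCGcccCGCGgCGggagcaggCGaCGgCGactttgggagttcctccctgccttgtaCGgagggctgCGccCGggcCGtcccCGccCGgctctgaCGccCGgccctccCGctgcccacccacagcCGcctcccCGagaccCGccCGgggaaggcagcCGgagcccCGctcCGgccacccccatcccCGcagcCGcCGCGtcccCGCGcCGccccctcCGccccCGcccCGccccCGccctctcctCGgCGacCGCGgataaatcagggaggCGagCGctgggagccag
Cacna2d2 (chr9:107399630-107399929, plus strand): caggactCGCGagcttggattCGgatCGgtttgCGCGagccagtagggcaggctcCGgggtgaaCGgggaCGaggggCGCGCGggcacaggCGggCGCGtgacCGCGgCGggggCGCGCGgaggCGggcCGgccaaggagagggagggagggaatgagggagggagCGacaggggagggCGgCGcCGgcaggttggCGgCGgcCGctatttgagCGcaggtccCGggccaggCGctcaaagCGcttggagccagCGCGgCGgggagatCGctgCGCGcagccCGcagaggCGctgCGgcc
Both are rich in G and C, with 80.0% for Cacna2d1 and 75.7% for Cacna2d2, beside a median of 52.7% over all 32851 windows. They hold 42 and 43 CG dinucleotides, beside a median of 7. The letters GGAATG, searched on both strands as a TEAD motif, occur once in the Cacna2d2 window and in 14.7% of all windows, and do not occur in the Cacna2d1 window. GATA, MEF2, NKX2-5, T-box and E-box motifs were searched as well, and the forms searched occur in neither window. The GATA search required adenine or thymine before the letters GATAA. The Cacna2d1 window holds these letters after a guanine, a form that was not searched. Both start regions are thus alike in base composition. The windows differ in placement: that of Cacna2d2 lies wholly inside the gene as GENCODE M21 places it, from chr9:107399612. That of Cacna2d1 spans its GENCODE M21 start at chr5:15934691.

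Of the neighbouring stages, E12.5 and E10.5 had the most calls. For E12.5 with E10.5, 8 of the 9 genes were called, where 38.0% of all genes were, and Cacna1c was the exception. The 4 that rose stand beside 20.0% of all genes called higher, and the 4 that fell beside 18.1% called lower. In that comparison 6 of the 9 had no overlap between stages, beside 38.2% of all genes. The calls of Cacnb2 and Cacnb3 were the unsteady ones: with 1 of the 8 libraries left out at a time, Cacnb2 was lost in 5 fits (without E10.5 replicates 1 or 2 or E12.5 replicates 1, 2 or 3) and Cacnb3 in 4 (without E10.5 replicates 1 or 2 or E12.5 replicates 1 or 3), and the count of the 9 ran from 6 to 8. Within the 13 high libraries 7 were called, with 28.0% of all genes called, and Cacnb3 (0.15 ± 0.10, adjusted p = 0.30) was not. Within the 5 low libraries 8 were called, with 31.7% of all genes. These differ from the 8 above, since Cacna1c was called (-0.22 ± 0.08, adjusted p = 0.0389) and Cacnb2 was not (-0.18 ± 0.08, adjusted p = 0.136), and E12.5 has 1 library there, whose spread is assumed to be that of the other stages. For E14.5 with E12.5 there were 2, both rising (Cacnb1 and Cacna1g), where 14.8% of all genes were called, 6.29% higher and 8.56% lower, and within the 13 high libraries 3, where 15.2% were. For E16.5 with E14.5 there was 1, Cacna1h, where 18.9% of all genes were called, 10.1% higher and 8.74% lower, and within the 13 high libraries 5, where 22.7% were. All E14.5 and E16.5 libraries are high ones, so those 5 calls come from the same libraries with another estimate of the spread. The late counts moved with the settings, between 1 and 4 for the E14.5 step and between 0 and 5 for the E16.5 step, where edgeR called 0 with RLE factors and 0 with no filter (5 of 9 at an unadjusted p under 0.05 in each) and DESeq2 called 4. Scaling by library totals alone put the median of all genes at E16.5 relative to E14.5 at a log2 fold change of -0.15, against -0.02 with TMM. It gave 1222 higher and 3776 lower calls there, against 1911 higher and 1651 lower with TMM. For the step before it the same scaling gave 1701 higher and 1020 lower, against 1187 higher and 1616 lower.

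**Figure D4:**
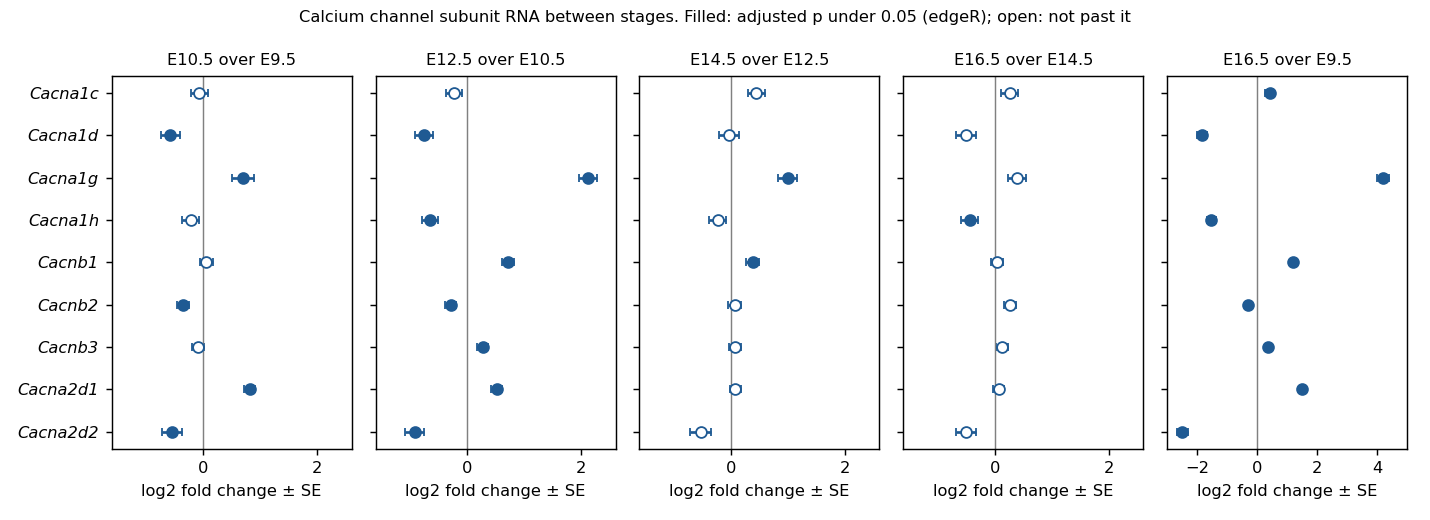
Log2 fold change ± SE of the 9 genes for each pair of stages, later over earlier, from edgeR, with filled points past an adjusted p of 0.05. The panel for E16.5 over E9.5 has a wider axis, and Cacna1g at 4.20 and Cacna2d2 at -2.50 are its extremes.

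The first step, E10.5 with E9.5, had 5 of the 9 called (Cacna1g and Cacna2d1 rising, Cacna1d, Cacnb2 and Cacna2d2 falling), with 18.2% of all genes called, 10.6% higher and 7.62% lower. Within the 13 high libraries 1 was called, with 6.10% of all genes, and only 1 E9.5 library enters, so that its spread is assumed to be that of the other stages. That gene was Cacna2d1 (0.53 ± 0.14, adjusted p = 0.0239), while Cacna1g was 0.21 ± 0.27 (adjusted p = 0.709), Cacna1d -0.050 ± 0.20, Cacnb2 -0.21 ± 0.11, Cacna2d2 0.041 ± 0.23 and Cacna1h 0.26 ± 0.12. Within the 5 low libraries, 7 were called with 34.9% of all genes, and Cacna1g was 1.08 ± 0.20, Cacna1d -0.72 ± 0.08, Cacnb2 -0.33 ± 0.07, Cacna2d2 -0.77 ± 0.07 and Cacna1h -0.32 ± 0.06. Without E9.5 replicate 2, and likewise without E9.5 replicate 3, 1 of the 9 was called. Cacna2d1 was past the threshold within both sets, at 1.04 ± 0.09 within the 5 low libraries (adjusted p = 5.70e-06). For E16.5 with E9.5, within the 13 high libraries 8 of the 9 were called, with 51.1% of all genes, at -1.28 ± 0.18 for Cacna1d, 3.83 ± 0.26 for Cacna1g, -0.97 ± 0.11 for Cacna1h, 1.27 ± 0.19 for Cacnb1, 0.45 ± 0.13 for Cacnb3, 1.32 ± 0.13 for Cacna2d1 and -1.97 ± 0.19 for Cacna2d2.

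Per kilobase of merged exon the order of the genes at E16.5 was Cacna2d2 (9.61 ± 1.5 CPM per kilobase), Cacna1c (8.80 ± 1.2), Cacna1h (8.64 ± 0.58), Cacnb3 (8.63 ± 0.65), Cacna1g (5.72 ± 0.64), Cacna2d1 (5.27 ± 0.15), Cacnb2 (4.05 ± 0.21), Cacnb1 (3.15 ± 0.32) and Cacna1d (1.19 ± 0.20). There the first 4 overlap with their neighbours, as do Cacna1g and Cacna2d1. At E9.5 the order was Cacna2d2 (54.1 ± 15), Cacna1h (24.99 ± 7.0), Cacnb3 (6.68 ± 0.32), Cacna1c (6.59 ± 1.6), Cacnb2 (5.004 ± 0.78), Cacna1d (4.26 ± 1.3), Cacna2d1 (1.89 ± 0.26), Cacnb1 (1.38 ± 0.06) and Cacna1g (0.310 ± 0.084), where the neighbours from Cacnb3 to Cacna1d overlap. With the longest coding transcript as the length, the E16.5 order began with Cacna1c (14.2 ± 1.9), Cacnb2 (13.6 ± 0.71), Cacna2d2 (13.1 ± 2.1) and Cacnb3 (12.65 ± 0.96), which overlap with their neighbours, and Cacnb2 was the third at E9.5 (16.8 ± 2.6). The places of Cacnb2 and of the leading genes at E16.5 thus rest on the length used, while the last place was held by Cacna1d at E16.5 and by Cacna1g at E9.5 with either.

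Other calcium channel subunits summed to 76.3 to 82.2 CPM at E16.5 and to 37.7 to 51.5 CPM at E9.5 over 17 genes. Of these, 14 were tested. At E16.5 relative to E9.5, 9 rose and 1 fell, where 32.1% of all genes tested were called higher and 32.8% lower. The median log2 fold change of the 14 was 1.03, beside -0.01 over all genes tested. Cacna1s, the pore of the skeletal muscle L-type channel, was the one that fell, to 0.644 ± 0.21 CPM at E16.5 (n = 4) against 7.69 ± 1.5 CPM at E9.5 (n = 3), a log2 fold change of -3.57 ± 0.27 (adjusted p = 7.39e-10). The rises with the largest fold changes among those with at least 1 CPM were those of the γ subunits Cacng4 (2.88 ± 0.50, at 7.99 ± 1.2 CPM at E16.5 against 1.07 ± 1.0 CPM at E9.5) and Cacng7 (2.16 ± 0.18), of Cacna1b, the N-type pore of neurons (1.63 ± 0.38), and of Cacng8 (1.15 ± 0.44). Of 12 neuronal and neural crest markers 7 rose and 1 fell in the same comparison, and their summed level was 105 to 137 CPM at E16.5 and 21.7 to 100.1 CPM at E9.5. Their part in these rises was not tested.

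Of 30 regulators and partners of the channels, all tested, 19 rose and 7 fell at E16.5 relative to E9.5, with a median log2 fold change of 0.47. Beside these, 32.1% of all genes tested were called higher and 32.8% lower, with a median of -0.01. Cav3, the muscle caveolin of caveolae and T-tubules, rose by 3.69 ± 0.18 on the log2 scale, Rem1, a small GTPase of the family that inhibits L-type channels, by 2.56 ± 0.16, Stac2, an adaptor known to bind L-type channels, by 2.25 ± 0.42, and Akap6, a kinase anchor of the nuclear envelope and sarcoplasmic reticulum, by 2.18 ± 0.13. Akap5, the anchor known to hold protein kinase A at the L-type channel, fell by 3.25 (SE 0.15), to 8.07 ± 0.98 CPM at E16.5 against 77.0 ± 17 CPM at E9.5. Rem2 fell by 1.84 (SE 0.22), Gem, of the same GTPase family, by 1.001 (SE 0.12), and Calm2, a calmodulin gene, by 0.68 (SE 0.07). Rrad, the remaining member of that family on the list, rose by 0.42 ± 0.09.

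Of 17 genes that handle calcium after entry, 8 rose, 4 fell and 5 were not called at E16.5 relative to E9.5, with a median log2 fold change of 0.07. Since 64.9% of all genes tested were called there, 32.1% higher and 32.8% lower, these counts alone say little. The rises were led by Sln (8.64 ± 0.43), the atrial pump inhibitor sarcolipin, Casq2 (7.03 ± 0.27), the calcium store protein of cardiac sarcoplasmic reticulum, Pln (3.62 ± 0.22), phospholamban, and S100a1 (2.85 ± 0.23). Casq1, the skeletal muscle store protein, fell by 1.87 (SE 0.10), Atp2b1, a plasma membrane calcium pump, by 0.78 (SE 0.07), Itpr1 by 0.42 (SE 0.14) and Hrc by 0.38 (SE 0.09). The release channel Ryr2 (-0.29 ± 0.21) and the exchanger Slc8a1 (-0.45 ± 0.20) did not pass.

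Marker lists moved across the same stages, and their part in the channel results was not tested. The counts of markers below stand beside 32.1% of all genes tested called higher and 32.8% called lower at E16.5 relative to E9.5. The 8 pacemaker and conduction markers summed to 99.1 to 155 CPM at E16.5 and 299 to 411 CPM at E9.5, with 1 rising and 5 falling, among them Hcn4, the pacemaker current channel, at 43.0 ± 12 CPM at E16.5 against 163 ± 49 CPM at E9.5. The 12 cardiomyocyte markers summed to 41620 to 48380 CPM at E16.5 and 33300 to 37690 CPM at E9.5, with 7 rising and 3 falling. The 8 fibroblast and epicardial markers summed to 3904 to 4746 CPM at E16.5 and 249 to 366 CPM at E9.5, with 6 rising and 0 falling. The 8 smooth muscle and pericyte markers summed to 1268 to 1515 CPM at E16.5 and 3700.0 to 4511 CPM at E9.5, with 4 rising and 3 falling. Most of that sum is Acta2, at 964 CPM at E16.5 against 3247 CPM at E9.5. Tagln and Cnn1 fell as well, while Kcnj8, Rgs5, Pdgfrb and Cspg4 rose and Myh11 was not called. The sum therefore does not describe the list as a whole. Relative to the summed cardiomyocyte markers within each library, Cacna1c differed by 0.082 and Cacnb3 by 0.0091 on the log2 scale at E16.5 relative to E9.5, while Cacna1g differed by 3.87, Cacna2d1 by 1.13, Cacna1h by -1.85, Cacna1d by -2.17 and Cacna2d2 by -2.83, as a description with no test.

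The genes most alike to each channel gene over the 18 libraries, by Pearson's r of log2 CPM among 10356 genes, were as follows, as a description in which all genes share the libraries and the stages. Cacna1g was most like Ogn (r = 0.99), Samd9l and Thbs2, of which Ogn and Thbs2 encode matrix proteins. Cacna2d1 was most like Scarb2 (r = 0.99), Tec and Arhgef6. Cacna2d2 was most like Zfp280b (r = 0.99), the growth factor gene Bmp5 and Homer2. Cacna1h was most like Nup188, the separase gene Espl1 and Acvr2b, and Cacna1d was most like Rgs9bp, Ccdc141 and Iws1, all with r of 0.98. Cacnb1 was most like Sun2, Btnl9 and Fmo2, with r of 0.98. For Cacna1c the nearest were Adcy6 (r = 0.95), an adenylyl cyclase of heart muscle, Syne1 and Grip2, for Cacnb2 they were Clic4 (r = 0.95), Cobll1 and Dysf, and for Cacnb3 Elob (r = 0.96), Dnttip1 and Ssbp4. Among the 9 themselves, Cacna2d2 with Cacna1h and with Cacna1d had r of 0.96 each, Cacnb1 with Cacna1g also 0.96, and Cacna2d2 with Cacna1g -0.96.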

How the data were processed

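Gene counts, whole numbers of reads per gene and not normalized, were deposited by the authors for each of 18 heart libraries, keyed by Ensembl identifier. Per the submitters' processing notes, Trimmomatic 0.36, STAR 2.5.2b, featureCounts, Subread 1.5.2 and the builds GRCm38 and mm10 were used. How reads were assigned by strand, and which annotation release served, is not given in the sources used here. Per the labels' protocols, total RNA was isolated from dissected hearts and sequenced by standard Illumina methods. Library totals ran from 30744015 to 45646538 counts. Coordinates and exon lengths came from GENCODE M21.

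The members and the gene lists were chosen with earlier results of these data known. The test across genes was edgeR 4.0.16 under R 4.3.3 (filterByExpr by stage, 18885 genes kept, TMM, robust quasi-likelihood fit, stage as the only term, all 18 libraries), with Benjamini-Hochberg adjustment over all genes and a threshold of 0.05. The fits recovered known changes in data simulated from these libraries. That simulation held no library sets and changed few genes, so it does not test the fits under the sets described above. Ratios within libraries were compared by exact two-sided permutation in scipy 1.17.1. No pair among the 24 same-stage pairs agreed within sampling noise (chi-square over its degrees of freedom 6.06 to 79.8), and each library was counted as 1 sample. That check cannot show independence, since separate libraries of the same pool could also exceed sampling noise. Pairs within a library set gave 7.03 at E9.5 and 7.53 and 6.06 at E10.5. Pairs across the sets gave 24.5 to 45.1 at these stages. Later pairs within the high set gave 21.0 to 32.1 at E12.5, 22.1 to 37.9 at E14.5 and 15.7 to 32.1 at E16.5. Values of that size are therefore not particular to pairs across the sets. Intervals cover the spread between libraries, and 3 counts as the floor covers counting error only. All 9 members were named. From each list, up to 4 largest rises and falls among called genes with at least 1 CPM in the higher stage were named, and per member the 3 genes with the highest Pearson correlation, among protein-coding genes averaging 10 CPM or more in some stage, leaving out predicted, RIKEN-named, mitochondrial, ribosomal protein and haemoglobin genes. Rrad, Ryr2, Slc8a1, Hcn4 and the smooth muscle and pericyte markers were named after their values were seen. The alternatives changed the scaling (RLE factors, or totals alone), the filter (none, or 10 CPM in at least 3 libraries), the tool (DESeq2 1.42.0) or the model: only the stages compared, a replicate block, the library set as a term, each library set alone, each library left out, and, added after seeing the data, the longest coding transcript as the length and ratios within the 5 low libraries.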

Additional observations from a re-analysis of the deposited data

Results flagged for a closer look

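Cacna1h in E16.5 replicate 2 stood at 92.8 CPM, apart from the other 3 libraries of that stage, which lie between 81.45 and 81.71 CPM, with a gap of 0.977 of the range of the stage. That is above Dixon's critical value for 4 libraries. It was 1 of 42 groups of libraries examined, where chance flags about 1 in 20. Cacna1c is also highest in that library, at 221 CPM.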

How the results depend on the processing

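For E16.5 with E9.5, Cacna1d, Cacna1g, Cacna1h, Cacnb1, Cacna2d1 and Cacna2d2 kept their direction and passed in all 16 alternatives, the counts of genes called ran from 8183 to 12279 (11224 to 12634 with a library left out), and the other 3 did not always pass: Cacna1c was 0.42 with only those 2 stages and 0.24 to 0.57 with a library left out, Cacnb2 was -0.089 with the library set as a term, -0.031 in the 13 high libraries and -0.42 to -0.21 with a library left out, and Cacnb3 was 0.24 with the library set as a term. For E10.5 with E9.5 the genes called were 3446, against 1215 in the 13 high libraries, 6460 in the 5 low libraries and 2260 to 3839 with a library left out; 3 of the 9 members were called with no filter, 1 in the 13 high libraries, 1 with only those 2 stages and 1 to 6 with a library left out. For E14.5 with E12.5, 1771 to 2585 genes were called with a library left out, and members called were 1 with no filter, 4 with a filter of 10 CPM, 4 with only those 2 stages, 4 with DESeq2 and 1 to 3 with a library left out. For E16.5 with E14.5, 2058 to 3849 genes were called with a library left out, and members called were 0 with RLE factors or no filter (edgeR, 5 of 9 at an unadjusted p under 0.05 in each), 3 with library totals, 4 with a filter of 10 CPM, DESeq2 or the library set as a term, 5 in the 13 high libraries or with only those 2 stages, 2 with the replicate block and 0 to 2 with a library left out. Signs turned for E10.5 with E9.5 in Cacna1c (0.0096 with the library set as a term, 0.24 in the 13 high libraries, -0.23 to 0.085 with a library left out), Cacna1h (0.26), Cacnb3 (0.16) and Cacna2d2 (0.041), all in the 13 high libraries, and in Cacnb1 (-0.076) in the 5 low libraries; for E14.5 with E12.5 in Cacna1d (0.042 with library totals, 0.013 with a filter of 10 CPM, 0.055 with the library set as a term, 0.040 in the 13 high libraries, -0.11 to 0.073 with a library left out); and for E16.5 with E14.5 with library totals in Cacnb1 (-0.092), Cacnb3 (-0.0075) and Cacna2d1 (-0.057), with a library left out giving -0.075 to 0.10 for Cacnb1 and -0.015 to 0.13 for Cacna2d1. Of these, Cacna2d2 at E10.5 relative to E9.5 was called with all libraries and the others were not. The cause was not tested. Same-numbered replicates correlated over 0.1 in 8 of 33 pairs (r from -0.78 to 0.67), so the numbers do not pair the libraries; with the replicate block, 3286, 7060, 2415, 3105 and 11927 genes were called in the 5 comparisons in the order of the stages, the last being E16.5 with E9.5. Depth limits Cacna1g at E9.5, which rests on 74 to 135 counts.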
